A study of Arabidopsis thaliana with 24 samples.

Results

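The messenger RNA of 10 genes of cuticular wax formation was followed through salt and heat stress in Arabidopsis thaliana seedlings of the exa1-1 mutant and the wild type. The 10 genes, out of 32833 in the count table, were chosen by a rule that lists them by name as known genes of the pathway. The rule uses no measured value, but earlier results of these data were known when the genes were chosen. They are 3 enzymes of fatty acid elongation (KCS1, KCS2, KCS6), 2 enzymes of alkane formation (CER1, CER3), an enzyme of alcohol formation (CER4), an enzyme of wax ester formation (WSD1), a lipid transfer protein (LTP3) and 2 transcription factors of the MYB family (MYB94, MYB96). Messenger RNA of whole 9-day-old seedlings, raised on 1/2 MS medium with sucrose, was sequenced in 24 strand-specific paired-end libraries. The wild type was Col-0, and exa1-1 is a mutant line of EXA1 (AT5G42950), which encodes a GYF domain protein. The 8 groups of 3 libraries were exa1-1 and wild type on medium with 200 mM NaCl for 60 min, exa1-1 and wild type on 1/2 MS for 60 min, exa1-1 and wild type at 39 °C for 60 min, and exa1-1 and wild type at 23 °C for 60 min. The submitters describe the 3 libraries of a group as independent biological replicates. Only 1 exa1 allele was used, and the sources used here do not describe its lesion.

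Plant epidermal cells cover the shoot with a cuticle of cutin and wax. Wax is made from very-long-chain fatty acids, which a membrane-bound elongase complex in the endoplasmic reticulum builds by adding carbon units, and the ketoacyl-CoA synthase (KCS) in that complex sets the chain length. An alkane-forming branch then gives aldehydes, alkanes, secondary alcohols and ketones, and an alcohol-forming branch gives primary alcohols and wax esters. Wax load is known to increase under drought, salt and abscisic acid, and MYB94 and MYB96 are activators of the pathway that act in that response.

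The genes lie on all chromosomes but the second and are protein-coding (RefSeq annotation of TAIR10.1). The elongation enzymes are KCS1 (AT1G01120, chr1:57164-59215, minus strand, 1 exon), KCS2 (AT1G04220, chr1:1119699-1122786, minus strand, 2 exons) and KCS6 (AT1G68530, chr1:25712414-25715024, minus strand, 1 or 2 exons by transcript). The alkane-forming enzymes are CER1 (AT1G02205, chr1:418416-422579, plus strand, 8 to 10 exons) and CER3 (AT5G57800, chr5:23420184-23424117, plus strand, 11 exons). CER4 (AT4G33790, chr4:16204096-16207956, minus strand, 10 exons) and WSD1 (AT5G37300, chr5:14767426-14770396, plus strand, 6 or 7 exons) form alcohols and esters, and LTP3 (AT5G59320, chr5:23928954-23929816, plus strand, 2 exons) is the transfer protein. The regulators are MYB94 (AT3G47600, chr3:17539289-17541307, minus strand, 2 or 3 exons) and MYB96 (AT5G62470, chr5:25078991-25081141, minus strand, 3 exons).

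The upstream sequences of the members the results turn on are shown first, because they differ in how many abscisic-acid-type elements they hold. Each is the 250 bases before the annotated start of the gene, 5′ to 3′ on the gene's own strand, from the RefSeq copy of TAIR10.1. Capitals mark the core of the abscisic acid response element (ACGTG, read on both strands, so CACGT on the printed strand is also marked) and a MYB96-type element (TAACTA or TAACTG, both strands). The windows are chr1:25715025-25715274, minus strand, for KCS6, chr1:418166-418415, plus strand, for CER1, chr4:16207957-16208206, minus strand, for CER4, chr1:1122787-1123036, minus strand, for KCS2, and chr5:23928704-23928953, plus strand, for LTP3.
KCS6: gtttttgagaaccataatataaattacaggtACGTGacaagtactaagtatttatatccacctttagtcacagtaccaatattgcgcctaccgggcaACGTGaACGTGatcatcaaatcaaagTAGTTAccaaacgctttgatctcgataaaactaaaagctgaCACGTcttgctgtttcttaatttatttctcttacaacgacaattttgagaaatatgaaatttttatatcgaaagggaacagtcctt
CER1: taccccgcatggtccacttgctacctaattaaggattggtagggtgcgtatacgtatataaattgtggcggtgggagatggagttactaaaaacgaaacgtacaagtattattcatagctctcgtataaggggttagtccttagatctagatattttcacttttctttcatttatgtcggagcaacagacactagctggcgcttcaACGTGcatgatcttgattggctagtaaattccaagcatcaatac
CER4: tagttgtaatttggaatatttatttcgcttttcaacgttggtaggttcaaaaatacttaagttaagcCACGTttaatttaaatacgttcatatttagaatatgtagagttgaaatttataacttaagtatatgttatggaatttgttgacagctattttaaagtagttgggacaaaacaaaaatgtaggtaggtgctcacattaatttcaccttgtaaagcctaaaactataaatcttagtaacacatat
KCS2: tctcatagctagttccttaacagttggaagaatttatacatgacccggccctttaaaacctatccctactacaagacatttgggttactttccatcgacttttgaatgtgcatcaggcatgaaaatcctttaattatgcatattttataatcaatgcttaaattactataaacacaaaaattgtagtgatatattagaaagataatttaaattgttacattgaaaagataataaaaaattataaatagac
LTP3: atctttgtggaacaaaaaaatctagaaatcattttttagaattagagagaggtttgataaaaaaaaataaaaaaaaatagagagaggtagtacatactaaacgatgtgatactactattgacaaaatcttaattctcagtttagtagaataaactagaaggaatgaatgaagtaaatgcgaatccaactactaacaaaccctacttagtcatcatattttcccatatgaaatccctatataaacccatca

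KCS6 held 4 copies of ACGTG and 1 MYB96-type element, CER1 held 1 copy of ACGTG and CER4 held 1. The other 7 members had neither set of letters in this window. ACGTG was therefore found in 3 of the 10 members, against 22.9% of the 27443 promoters of the same length in the annotation, and a MYB96-type element in 1 of 10, against 26.9%. The heat shock type element GAANNTTC was in 0 of the 10 windows, against 9.55% of all promoters, and the TATA motif TATAAA was in 7, against 47.3%. No matches of different motifs overlapped. These are matches of letters only, and a gene with no match may hold the element elsewhere.

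**Figure D1:**
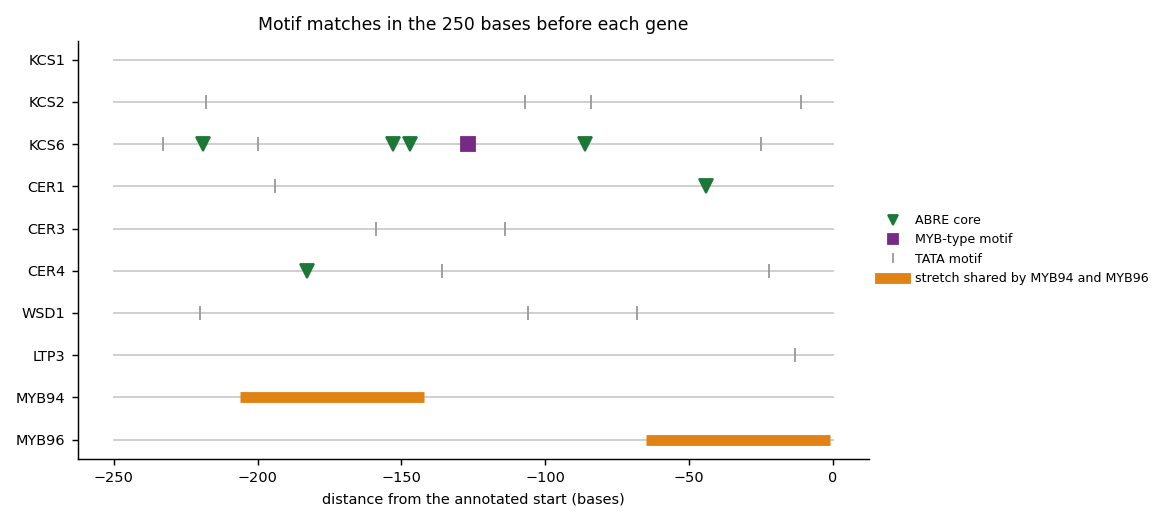
Matches of the ACGTG core, the MYB96-type element and TATAAA in the 250 bases before the annotated start of each of the 10 genes, on either strand, and the stretch shared by MYB94 and MYB96 as an orange bar; the horizontal axis is the distance from the start in bases. KCS6 holds 4 copies of the ACGTG core, CER1 and CER4 hold 1 each, and the other members hold none.

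The paralogous regulators MYB94 and MYB96 are shown for another reason. Their coding sequences were 84.4% identical over 947 aligned bases, and a stretch of 65 bases with 58 identical bases lay upstream of both, marked in capitals below. In MYB94 (chr3:17541308-17541557, minus strand) it ran from 206 to 142 bases before the start, and in MYB96 (chr5:25081142-25081391, minus strand) from 65 bases to 1 base before it.
MYB94: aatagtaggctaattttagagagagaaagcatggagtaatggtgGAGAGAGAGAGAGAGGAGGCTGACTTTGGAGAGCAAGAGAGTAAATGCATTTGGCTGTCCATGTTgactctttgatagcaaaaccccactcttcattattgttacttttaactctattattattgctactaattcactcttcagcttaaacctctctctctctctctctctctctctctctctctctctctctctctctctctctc
MYB96: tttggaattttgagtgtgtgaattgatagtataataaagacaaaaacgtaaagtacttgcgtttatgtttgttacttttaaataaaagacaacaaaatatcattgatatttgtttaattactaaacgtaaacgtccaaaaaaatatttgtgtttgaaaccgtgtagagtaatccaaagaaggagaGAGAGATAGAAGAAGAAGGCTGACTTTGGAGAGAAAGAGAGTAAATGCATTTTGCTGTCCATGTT

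Libraries held 17658196 to 20992263 counts, and replicates of a group correlated at r = 0.984 to 0.994 across genes over 24 pairs. EXA1 itself, which checks the genotype labels, was lower in exa1-1 than in the wild type by 1.84 on the log2 scale under NaCl, 1.79 on 1/2 MS, 3.07 at 39 °C and 2.12 at 23 °C, and the mutant libraries still held 240 to 1162 EXA1 counts. Markers of the epidermis, guard cells, mesophyll and roots were all detected in every library. The 1/2 MS and 23 °C groups carry different labels although both are unstressed controls, and they differed at 65.6% to 69.0% of all genes tested. Salt was therefore compared only with 1/2 MS and heat only with 23 °C. Levels below are CPM, counts scaled to a common library size by the trimmed mean of M-values (TMM) over all 24 libraries; fold changes and adjusted p-values are from edgeR's quasi-likelihood test on counts with Benjamini-Hochberg adjustment over all genes of a fit, and a gene was called at an adjusted p under 0.05. Each SE is from the spread of log2 CPM between libraries and not from that fit.

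Per length, KCS6 had the highest level of the 10 in every group, between 16.2 FPKM (fragments counted, scaled by gene length and library total) in wild type at 39 °C and 143 FPKM in exa1-1 under NaCl. KCS6, also called CER6, is the condensing enzyme that makes the longest wax precursors of the shoot. Group means of KCS6 were 143 ± 11.5 FPKM in exa1-1 under NaCl and 120 ± 13.5 in wild type under NaCl, against 86.0 ± 5.83 in exa1-1 and 79.7 ± 4.22 in wild type on 1/2 MS (SD, n = 3 each). On 1/2 MS the wild type's order by mean FPKM was KCS6 79.7, KCS1 45.4, CER3 23.8, MYB96 8.38, MYB94 6.83, KCS2 4.81, CER1 3.81, LTP3 3.17, CER4 1.34 and WSD1 0.186. In wild type under NaCl the order became KCS6 120, LTP3 46.3, KCS1 43.8, CER3 27.7, KCS2 22.5, MYB96 15.3, CER1 11.2, MYB94 4.91, WSD1 0.716 and CER4 0.101. LTP3 thus moved past 6 of the other members, and CER4 went below WSD1.

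Several neighbours in these orders could not be separated, because the FPKM values of their libraries overlapped. On 1/2 MS these were KCS2 with CER1 and CER1 with LTP3 in wild type, and MYB96 with MYB94 and KCS2 with LTP3 in exa1-1. Under NaCl, LTP3 overlapped KCS1 in both genotypes and CER3 overlapped KCS2 in exa1-1. At 39 °C the order in wild type was KCS6 16.2, CER3 6.92, LTP3 5.05, KCS2 3.36, MYB96 2.47, MYB94 1.84, KCS1 1.39, CER1 1.03 and CER4 0.273 FPKM, with WSD1 at 0, and MYB96 with MYB94 overlapped there. KCS1 had rank 7 of the 10 in wild type at 39 °C, against rank 3 at 23 °C with 16.9 ± 0.749 FPKM (SD, n = 3).

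**Figure D2:**
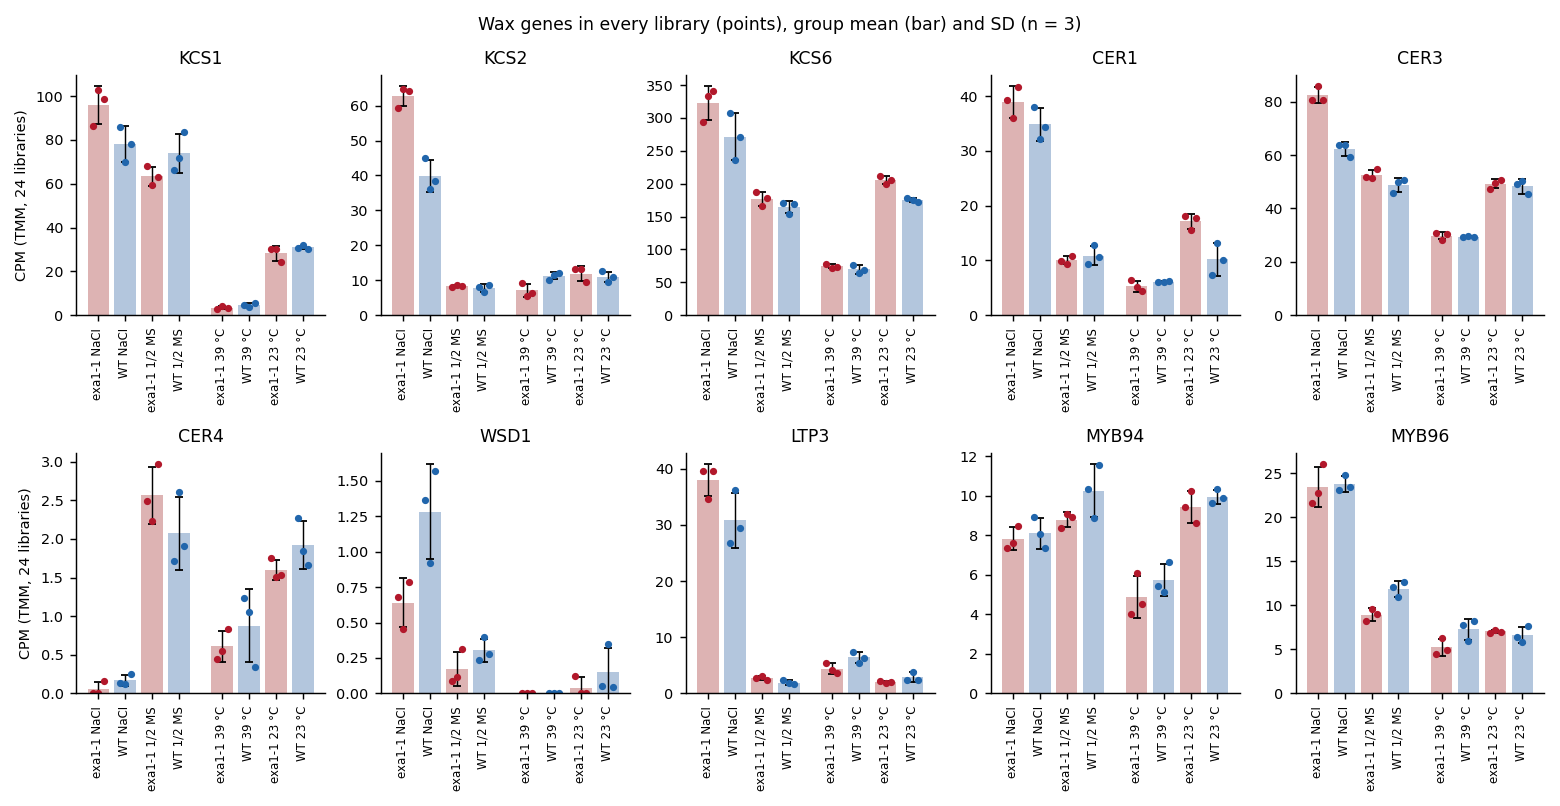
Each point is the level of a gene in 1 library, in CPM after TMM scaling, with the group mean as a bar and its SD as an error bar, for the 10 genes in the 8 groups of 3 libraries, with exa1-1 left of wild type and stress left of its control. CER1, KCS2 and LTP3 stand clearly higher in the 6 NaCl libraries than in the 6 on 1/2 MS, CER4 stands lower there, and KCS1 and KCS6 stand lower in the 6 libraries at 39 °C than in the 6 at 23 °C.

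Salt raised most of the genes within 60 min in both genotypes. In exa1-1, 8 of the 10 rose and 1 fell, and in wild type 7 rose and 2 fell; all genes gave 35.7% higher and 36.2% lower (71.9% in either direction) of 21462 tested in exa1-1, and 35.3% higher and 35.6% lower (70.9% in either direction) in wild type, so that a call by itself was common. The members' median change was 1.13 on the log2 scale in exa1-1 and 0.85 in wild type, against -0.01 over all genes in each genotype. LTP3, KCS2 and CER1 rose more than 3-fold in both genotypes, WSD1 rose from low counts, CER4 fell more than 10-fold, and KCS6, CER3 and MYB96 rose by 1.27 to 2.62-fold.

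Of the elongation enzymes, KCS2 showed the steepest salt response. KCS2, also known as DAISY, is a condensing enzyme known for its part in root suberin as well as in wax. Its level was 59.4, 64.7 and 64.1 CPM in exa1-1 under NaCl, against 8.19, 8.60 and 8.23 CPM in exa1-1 on 1/2 MS, a 7.53-fold rise (log2 2.91 ± 0.04 SE, adjusted p = 1.49e-17). In wild type it was 45.1, 36.2 and 38.5 CPM under NaCl, against 8.19, 6.56 and 8.64 CPM on 1/2 MS, a 5.08-fold rise (log2 2.34 ± 0.15 SE, adjusted p = 1.35e-15). All 6 NaCl libraries lay above all 6 control libraries, and the 3 of exa1-1 lay above the 3 of wild type under NaCl. An antisense RNA gene, AT1G04247, lies within KCS2 over 2302 bases, and its count was 3.93% to 5.88% of that of KCS2 in every group; since the strand setting of the counting does not appear in the sources at hand, reads of the pair cannot be told apart.

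KCS6 had 293, 334 and 341 CPM in exa1-1 under NaCl, against 187, 166 and 179 CPM in exa1-1 on 1/2 MS, and rose 1.82-fold (log2 0.87 ± 0.09 SE, adjusted p = 1.2e-09). Wild type had 308, 235 and 271 CPM under NaCl, against 171, 154 and 170 CPM on 1/2 MS, a 1.63-fold rise (log2 0.71 ± 0.12 SE, adjusted p = 3.1e-08). The NaCl libraries of either genotype lay above their controls. KCS1, a condensing enzyme of broad expression, was 86.4, 103 and 98.9 CPM in exa1-1 under NaCl, against 68.0, 59.2 and 63.1 CPM on 1/2 MS, a 1.52-fold rise (log2 0.60 ± 0.10 SE, adjusted p = 1.44e-06). In wild type KCS1 was 86.1, 69.8 and 78.2 CPM under NaCl, against 66.1, 71.9 and 83.7 CPM on 1/2 MS. Those wild-type groups overlapped, with a log2 difference of 0.07 ± 0.13 SE (adjusted p = 0.481).

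The alkane-forming pair responded to different degrees. CER1 and CER3 act together to turn very-long-chain acyl-CoA into alkanes. CER1 was 39.2, 36.0 and 41.7 CPM in exa1-1 under NaCl, against 9.96, 9.37 and 10.8 CPM on 1/2 MS, a 3.88-fold rise (log2 1.96 ± 0.09 SE, adjusted p = 7.51e-14). In wild type CER1 was 38.0, 32.2 and 34.3 CPM under NaCl, against 9.26, 12.8 and 10.5 CPM on 1/2 MS, a 3.18-fold rise (log2 1.67 ± 0.15 SE, adjusted p = 1.13e-12). The groups were far apart in both genotypes. CER3 was 80.8, 85.9 and 80.7 CPM in exa1-1 under NaCl, against 51.9, 51.4 and 54.7 CPM on 1/2 MS, and rose 1.57-fold (log2 0.65 ± 0.04 SE, adjusted p = 3.48e-10). In wild type CER3 was 63.7, 63.8 and 59.3 CPM under NaCl, against 45.7, 50.1 and 50.6 CPM on 1/2 MS, and rose 1.27-fold (log2 0.34 ± 0.06 SE, adjusted p = 7.01e-06). Both rises are smaller than those of CER1 in the same libraries, a comparison of the values that was not tested.

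The alcohol-forming branch split. CER4, the acyl-CoA reductase that makes primary alcohols, had 0, 0 and 4 counts in exa1-1 under NaCl, against 56, 58 and 76 on 1/2 MS. In wild type CER4 had 3, 3 and 6 counts under NaCl, against 43, 66 and 48 on 1/2 MS. It fell by 5.40 ± 0.55 SE on the log2 scale in exa1-1 (adjusted p = 2.47e-09) and by 3.56 ± 0.28 SE in wild type (adjusted p = 1.07e-07), the largest falls among the 10. At counts this low the SE, taken from log2 CPM with a prior count, does not give the error of the fitted change. The same holds for WSD1 below. Over the alternatives run, the CER4 change ranged from -8.97 to -1.36 in exa1-1 and from -3.96 to -1.08 in wild type. The 4 counts left in exa1-1 give a ratio of 0.0217 of NaCl over 1/2 MS with an exact 95% interval of 0.00585 to 0.0565, which covers counting error only. On the log2(FPKM + 1) scale the CER4 change under salt was -1.36 in exa1-1 and -1.08 in wild type. All 4 counts in exa1-1 lay in library 3. Without it CER4 is at 0 in exa1-1 under NaCl, and it is then called lower in exa1-1 than in wild type under NaCl (adjusted p = 0.0162) and called for a lower salt response in exa1-1 (adjusted p = 0.025), neither of which was called with all libraries. WSD1, which joins a fatty acid to an alcohol into a wax ester, had 16, 11 and 19 counts in exa1-1 under NaCl, against 2, 3 and 8 on 1/2 MS, and 30, 22 and 37 in wild type under NaCl, against 6, 10 and 7 on 1/2 MS. It rose 3.58-fold in exa1-1 (log2 1.84 ± 0.43 SE, adjusted p = 0.00149) and 4.12-fold in wild type (log2 2.04 ± 0.27 SE, adjusted p = 4.76e-05), from low counts in both. The ratio of summed counts had a 95% counting interval of 1.94 to 7.36 in exa1-1 and 2.61 to 6.92 in wild type, and without exa1-1 library 3 on 1/2 MS the log2 rise in exa1-1 was 2.56. In bulk seedling RNA, fewer cells of a type and less RNA per cell cannot be told apart.

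LTP3, a small secreted lipid transfer protein that is a known target of MYB96, had the largest rise of the 10 genes in both genotypes. Its level was 39.5, 34.7 and 39.7 CPM in exa1-1 under NaCl, against 2.67, 3.16 and 2.34 CPM on 1/2 MS, a 13.9-fold rise (log2 3.80 ± 0.13 SE, adjusted p = 2.03e-16). The wild type had 26.8, 36.2 and 29.5 CPM under NaCl, against 2.38, 1.82 and 1.59 CPM on 1/2 MS, a 15.8-fold rise (log2 3.99 ± 0.21 SE, adjusted p = 4.04e-16). LTP4, the neighbouring paralogue 2996 bases away with 86.7% identical coding sequence, had 633 counts over the 3 NaCl libraries and 5 over the 3 control libraries of exa1-1, a ratio of 131 with a 95% counting interval of 55.6 to 403. In wild type LTP4 had 554 counts under NaCl and 1 on 1/2 MS, a ratio of 597 with an interval of 107 to 23633. Reads shared by LTP3 and LTP4 could be assigned to either, and the sources at hand do not say how such reads were counted.

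The paralogous regulators parted under salt. MYB96 was 21.6, 22.7 and 26.0 CPM in exa1-1 under NaCl, against 8.19, 9.60 and 9.05 CPM on 1/2 MS, a 2.62-fold rise (log2 1.39 ± 0.10 SE, adjusted p = 4.89e-12). In wild type MYB96 was 23.1, 24.8 and 23.5 CPM under NaCl, against 12.0, 10.9 and 12.7 CPM on 1/2 MS, a 1.99-fold rise (log2 0.99 ± 0.07 SE, adjusted p = 7.17e-10). Its groups did not overlap in either genotype. MYB94 was 7.36, 7.61 and 8.47 CPM in exa1-1 under NaCl, against 8.36, 9.06 and 8.93 CPM on 1/2 MS, a log2 difference of -0.17 ± 0.07 SE that was not called (adjusted p = 0.169). In wild type MYB94 was 8.90, 8.04 and 7.33 CPM under NaCl, against 10.3, 8.89 and 11.5 CPM on 1/2 MS, and fell 1.28-fold (log2 -0.35 ± 0.13 SE, adjusted p = 0.00545). MYB94 in exa1-1 was called lower, at -0.30 on the log2 scale (adjusted p = 0.0177), when libraries were scaled by total counts alone.

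**Figure D3:**
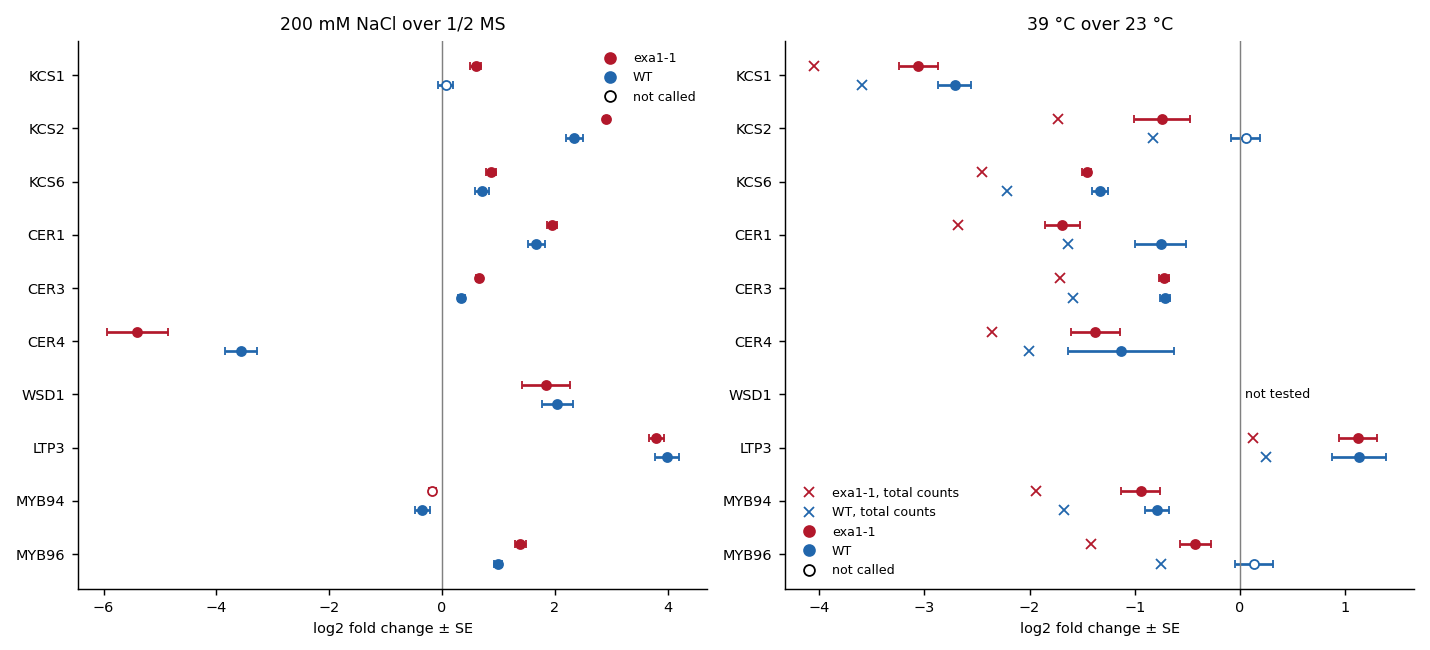
Log2 fold change ± SE of each gene for NaCl over 1/2 MS and for 39 °C over 23 °C, with exa1-1 above wild type; filled points were called at an adjusted p under 0.05, open points were not, and crosses in the heat panel are the values with total counts only. LTP3, KCS2, CER1 and WSD1 lie right of zero under salt and CER4 far left, while under heat every called gene but LTP3 lies left of zero under TMM scaling.

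Between the genotypes, 1 of the genes differed on 1/2 MS and 6 differed under NaCl. On 1/2 MS, 0 of the 10 were higher in exa1-1 and 1 was lower, beside 8.14% of all genes higher and 10.1% lower (18.3% in either direction). That gene was MYB96, at 8.19, 9.60 and 9.05 CPM in exa1-1, against 12.0, 10.9 and 12.7 CPM in wild type, 1.32-fold lower (log2 -0.40 ± 0.09 SE, adjusted p = 0.0039). Under NaCl, 5 of the 10 were higher in exa1-1 and 1 was lower, beside 15.9% of all genes higher and 13.6% lower. KCS2 was 1.59-fold higher (log2 0.67 ± 0.10 SE, adjusted p = 4.46e-07), CER3 1.34-fold higher (log2 0.42 ± 0.04 SE, adjusted p = 2.9e-06) and KCS1 1.24-fold higher (log2 0.31 ± 0.11 SE, adjusted p = 0.00623), and in none of these 3 did the genotypes overlap. KCS6 (1.20-fold higher, adjusted p = 0.00997) and LTP3 (1.24-fold higher, adjusted p = 0.0162) were also called, with libraries of the genotypes that overlapped. The call of KCS6 was lost without wild-type NaCl library 2 or 3 or exa1-1 NaCl library 2 or 3, and that of LTP3 without library 1 or 3 of either genotype under NaCl, with all 24 libraries in 1 fit (adjusted p = 0.0511) and on FPKM in all 3 settings (adjusted p from 0.0882 to 0.144). WSD1 was 1.97-fold lower in exa1-1 (log2 -0.98 ± 0.30 SE, adjusted p = 0.0277). The call of WSD1 was lost without wild-type NaCl library 1 or 3 and without exa1-1 NaCl library 1 or 2, in DESeq2 (adjusted p = 0.0716) and with all 24 libraries in 1 fit (adjusted p = 0.0761), and that of KCS1 was lost without exa1-1 NaCl library 2 (adjusted p = 0.0675).

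The salt response itself differed between the genotypes for 4 of the 10 genes, all with a larger log2 response in exa1-1, beside 6.02% of all genes with a higher interaction term and 5.16% with a lower one. The difference of the 2 responses was 0.57 ± 0.16 SE on the log2 scale for KCS2 (adjusted p = 0.00593) and 0.53 ± 0.16 SE for KCS1 (adjusted p = 0.00439). For CER3 it was 0.31 ± 0.07 SE (adjusted p = 0.00869), and for MYB96 0.40 ± 0.12 SE (adjusted p = 0.0359). The 4 genes reached this in different ways. KCS2, KCS1 and CER3 differed between genotypes under NaCl, whereas MYB96 had 21.6 to 26.0 CPM in exa1-1 and 23.1 to 24.8 CPM in wild type under NaCl and differed on 1/2 MS. The calls of KCS2 and KCS1 held under all 21 alternatives run, that of CER3 was lost without wild-type NaCl library 3 (adjusted p = 0.0502), and that of MYB96 was lost in 12 of 21, 8 of them fits that left out 1 library (exa1-1 library 2 or 3 and wild-type library 1 or 3 under NaCl, and library 1 or 3 of either genotype on 1/2 MS).

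Of 4 close relatives of the members, 2 were called for a difference in salt response and 2 were not. KCS20, which shares 84.1% of its aligned coding bases with KCS2 and is known to act redundantly with it, changed by 0.17 on the log2 scale under salt in exa1-1 and by -0.33 in wild type, a difference of 0.50 (adjusted p = 4.7e-05). KCS5, 81.3% identical to KCS6, changed by -0.43 in exa1-1 and by -0.83 in wild type, a difference of 0.41 (adjusted p = 0.0053). Both had values below 0 in wild type, where KCS2 and KCS6 rose. The relative of CER1, AT1G02190, had a difference of -0.27 that was not called (adjusted p = 0.901), and LTP4, with 1 count in wild type on 1/2 MS, was not called either (adjusted p = 0.386). FAR1, an alcohol-forming acyl-CoA reductase of suberin that was picked out for its values and is given as a description only, was 50.9, 52.3 and 52.5 CPM in exa1-1 under NaCl, against 21.6, 21.7 and 21.9 CPM on 1/2 MS. In wild type FAR1 was 36.7, 42.2 and 44.0 CPM under NaCl, against 58.4, 45.5 and 68.3 CPM on 1/2 MS. Its NaCl libraries lay above their controls in exa1-1 and below them in wild type.

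**Figure D4:**
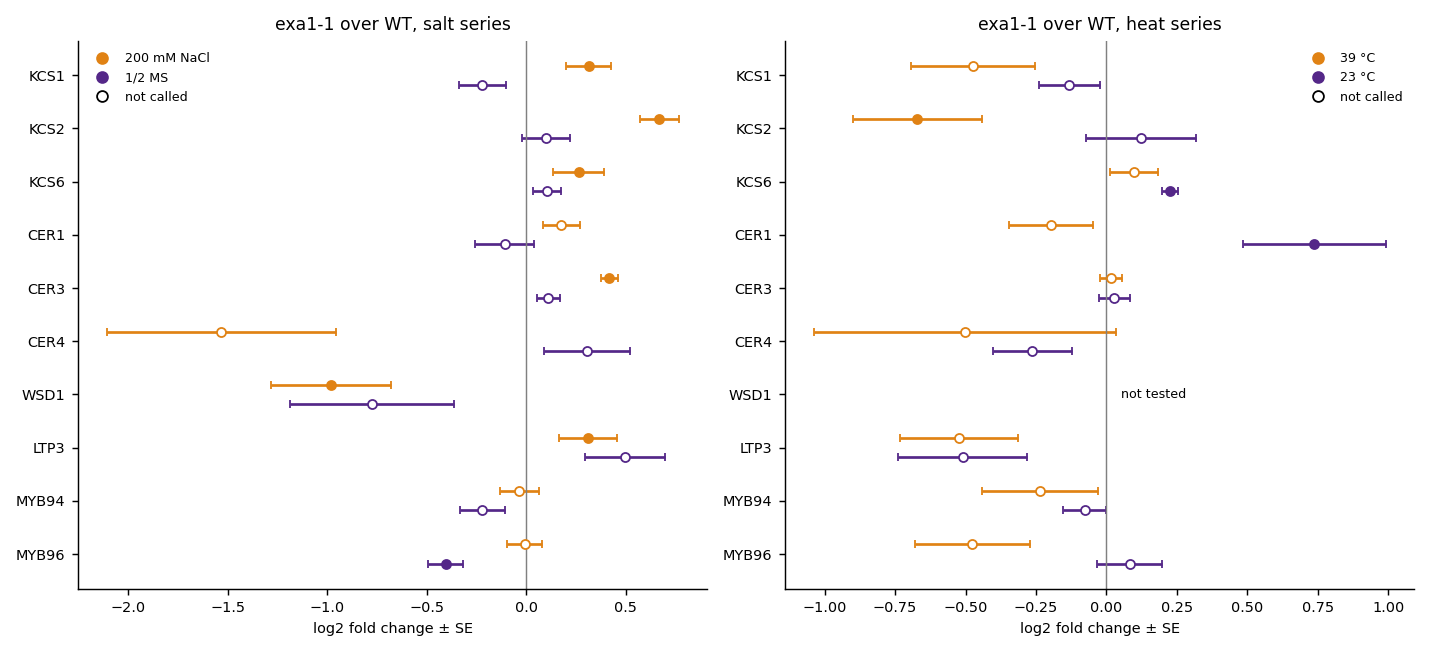
Log2 fold change ± SE of exa1-1 over wild type for each gene in the 4 conditions; filled points were called at an adjusted p under 0.05 and open points were not. KCS2, CER3, KCS1, KCS6 and LTP3 lie right of zero and WSD1 left under NaCl, MYB96 lies left on 1/2 MS, CER1 and KCS6 lie right at 23 °C and KCS2 lies left at 39 °C.

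Heat lowered most of the genes in both genotypes. In exa1-1, 8 of the 9 genes tested were lower at 39 °C than at 23 °C and LTP3 was higher; in wild type 6 were lower and LTP3 was higher. Over all 20972 genes tested, 38.4% were called higher and 41.8% lower (80.2% in either direction) in exa1-1, and 38.4% higher and 41.6% lower (80.1% in either direction) in wild type. The members' median was -0.95 on the log2 scale in exa1-1 and -0.75 in wild type, against -0.08 and -0.07 over all genes in the same genotypes. These values depend on the scaling. With total counts in place of TMM the median of all genes was -1.08 in exa1-1 and -0.95 in wild type. A change of scaling shifts all genes by nearly the same amount. The members' distance from that median could therefore hardly move and is no check. Under total counts 8 of the 9 genes were lower and 0 were higher in each genotype. With the median of all genes itself lower under this scaling, that count does not set the members apart from all genes. KCS2 and MYB96 in wild type became lower (-0.82, adjusted p = 0.000123, and -0.75, adjusted p = 0.000145). LTP3 was no longer called (0.13, adjusted p = 0.604 in exa1-1 and 0.25, adjusted p = 0.280 in wild type).

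KCS1 fell furthest. It was 2.78, 4.05 and 3.33 CPM in exa1-1 at 39 °C, against 30.3, 30.3 and 24.2 CPM at 23 °C, an 8.32-fold fall (log2 -3.06 ± 0.19 SE, adjusted p = 2.23e-13). In wild type it was 4.65, 3.80 and 5.64 CPM at 39 °C, against 30.7, 31.9 and 30.3 CPM at 23 °C, a 6.56-fold fall (log2 -2.71 ± 0.16 SE, adjusted p = 4.8e-13). Every library at 39 °C was below every library at 23 °C. KCS6 was 78.1, 72.4 and 72.8 CPM in exa1-1 at 39 °C, against 211, 199 and 205 CPM at 23 °C, and fell 2.75-fold (log2 -1.46 ± 0.04 SE, adjusted p = 7.21e-14). Wild type libraries had 76.8, 63.3 and 68.8 CPM at 39 °C, against 179, 175 and 173 CPM at 23 °C, a 2.52-fold fall (log2 -1.33 ± 0.08 SE, adjusted p = 3.27e-13). The groups did not overlap.

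KCS2, which had risen most steeply of the 3 under salt, was called lower under heat in exa1-1 and was not called in wild type under TMM scaling. It was 9.24, 5.53 and 6.47 CPM in exa1-1 at 39 °C, against 13.1, 13.1 and 9.40 CPM at 23 °C, a 1.67-fold fall (log2 -0.74 ± 0.27 SE, adjusted p = 0.000706). Wild type had 10.2, 11.6 and 12.1 CPM at 39 °C, against 12.6, 9.50 and 10.8 CPM at 23 °C, with a log2 difference of 0.05 ± 0.14 SE (adjusted p = 0.772). The wild-type groups overlapped and those of exa1-1 did not.

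CER3 fell by nearly the same factor in both genotypes. It was 30.8, 28.3 and 30.2 CPM in exa1-1 at 39 °C, against 47.5, 49.4 and 50.7 CPM at 23 °C (1.65-fold lower, adjusted p = 6.05e-09), and 29.3, 29.8 and 29.2 CPM in wild type at 39 °C, against 49.0, 50.4 and 45.3 CPM at 23 °C (1.63-fold lower, adjusted p = 7.92e-09). CER1 was 6.37, 5.07 and 4.44 CPM in exa1-1 at 39 °C, against 18.2, 15.6 and 17.7 CPM at 23 °C, a 3.22-fold fall (log2 -1.69 ± 0.16 SE, adjusted p = 5.18e-08). In wild type CER1 was 6.07, 6.01 and 6.15 CPM at 39 °C, against 7.33, 13.3 and 10.0 CPM at 23 °C, a 1.69-fold fall (log2 -0.75 ± 0.24 SE, adjusted p = 0.000942). The 6 libraries at 39 °C lay between 4.44 and 6.37 CPM, and at 23 °C the 3 of exa1-1 lay above the 3 of wild type.

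CER4 had 5, 6 and 9 counts in exa1-1 at 39 °C, against 42, 37 and 35 at 23 °C, and fell 2.59-fold under TMM scaling (log2 -1.37 ± 0.23 SE, adjusted p = 0.0028), against a log2 change of -2.36 with total counts only. In wild type it had 13, 12 and 4 counts at 39 °C, against 44, 42 and 39 at 23 °C, and fell 2.19-fold under TMM scaling (log2 -1.13 ± 0.50 SE, adjusted p = 0.00581), against -2.01 with total counts only. WSD1 had 0 counts in all 6 libraries at 39 °C, against 3, 0 and 0 in exa1-1 and 1, 8 and 1 in wild type at 23 °C, and was too low to be tested. With the 10 counts of the wild type at 23 °C set against a floor of 3 counts over the group at 39 °C, WSD1 was at least 1.70-fold lower in wild type at 39 °C. That bound rests on the 8 counts of library 2, without which 2 counts remain at 23 °C and no bound can be given. LTP3 was 5.47, 4.24 and 3.61 CPM in exa1-1 at 39 °C, against 2.16, 1.92 and 2.06 CPM at 23 °C (2.17-fold higher, adjusted p = 0.000185), and 7.40, 5.48 and 6.32 CPM in wild type at 39 °C, against 2.43, 3.90 and 2.39 CPM at 23 °C (2.19-fold higher, adjusted p = 6.67e-05).

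MYB94, which salt had moved little, fell under heat in both genotypes. It was 4.04, 6.08 and 4.53 CPM in exa1-1 at 39 °C, against 9.41, 10.2 and 8.62 CPM at 23 °C (1.93-fold lower, adjusted p = 1.15e-05), and 5.41, 5.12 and 6.66 CPM in wild type at 39 °C, against 9.61, 10.3 and 9.86 CPM at 23 °C (1.73-fold lower, adjusted p = 6.71e-05). MYB96 was 4.48, 6.35 and 4.90 CPM in exa1-1 at 39 °C, against 6.91, 7.26 and 7.00 CPM at 23 °C (1.34-fold lower, adjusted p = 0.0241), a call lost without exa1-1 library 1 or 3 at 39 °C. In wild type MYB96 was 7.78, 5.92 and 8.20 CPM at 39 °C, against 6.46, 5.83 and 7.68 CPM at 23 °C, with overlapping groups and a log2 difference of 0.13 ± 0.18 SE (adjusted p = 0.436).

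Between the genotypes of the heat series few genes differed. At 39 °C, 0 of the 9 were higher in exa1-1 and 1 was lower, beside 12.7% of all genes higher and 11.7% lower: KCS2, 1.59-fold lower (log2 -0.67 ± 0.23 SE, adjusted p = 0.0129), a call lost without wild-type library 3 or exa1-1 library 2 or 3 at 39 °C. At 23 °C, 2 were higher in exa1-1 and 0 were lower, beside 8.27% and 11.2% of all genes: CER1, 1.67-fold higher (log2 0.74 ± 0.25 SE, adjusted p = 0.00173), and KCS6, 1.17-fold higher (log2 0.22 ± 0.03 SE, adjusted p = 0.0123). The heat response was lower in exa1-1 than in wild type by 0.94 ± 0.29 SE on the log2 scale for CER1 (adjusted p = 0.034) and by 0.79 ± 0.30 SE for KCS2 (adjusted p = 0.0477), 2 of 9 genes beside 3.69% of all genes with a lower interaction term and 4.36% with a higher one. The call of CER1 was lost in 7 of 12 fits that left out 1 library (exa1-1 library 2 or 3 and wild-type library 1, 2 or 3 at 39 °C, exa1-1 library 1 and wild-type library 3 at 23 °C), and that of KCS2 in 8 of 12 (exa1-1 library 2 or 3 and wild-type library 2 or 3 at 39 °C, exa1-1 library 1 or 2 and wild-type library 2 or 3 at 23 °C). The KCS2 call was also lost on FPKM in all 3 settings (adjusted p from 0.0567 to 0.0956).

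Set against each other, the 2 stresses moved the genes apart. In the fit of all 24 libraries the salt response exceeded the heat response for 8 of the 10 genes in exa1-1 and 9 in wild type and was lower for CER4 in both, when 38.2% of 21907 genes had the higher salt response in exa1-1 and 38.4% in wild type, and 74.2% in exa1-1 and 73.3% in wild type differed in either direction. In wild type, leaving out 1 library at a time gave 8 to 10 members called. WSD1, with 0 counts at 39 °C, lost its wild-type call without wild-type library 2 at 23 °C (adjusted p = 0.0621). MYB94 lost its call without wild-type library 2 on 1/2 MS, 1 under NaCl, 2 at 23 °C, or 1 or 2 at 39 °C. The difference of the responses was 3.66 on the log2 scale in exa1-1 and 2.80 in wild type for KCS1, 3.65 and 2.3 in the same genotypes for KCS2, and 3.65 and 2.44 for CER1. For KCS6 it was 2.33 in exa1-1 and 2.05 in wild type, and for CER4 -4.00 in exa1-1 and -2.41 in wild type. LTP3, higher under both stresses with TMM scaling, had 2.68 in exa1-1 and 2.87 in wild type. With total counts only, the median of all genes in this difference moved to 0.92 in exa1-1 and 0.82 in wild type.

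The 2 unstressed sets differed for several of the genes, which bears on any level set across the series. In exa1-1, 3 of 9 genes were higher at 23 °C than on 1/2 MS and 3 were lower, beside 32.9% of all genes higher and 32.7% lower. In wild type 2 were higher and 2 lower, beside 33.7% and 35.3%. These counts do not set the members apart from all genes. KCS1 was lower at 23 °C than on 1/2 MS by 1.17 ± 0.12 SE on the log2 scale in exa1-1 (adjusted p = 1.44e-09) and by 1.28 ± 0.10 SE in wild type (adjusted p = 3.07e-10). KCS2 was higher by 0.50 ± 0.16 SE in exa1-1 (adjusted p = 0.00282) and by 0.46 ± 0.17 SE in wild type (adjusted p = 0.00572), a call lost on FPKM in all 3 settings in wild type (adjusted p from 0.0614 to 0.0983) and on unfiltered FPKM in exa1-1 (adjusted p = 0.0509). MYB96 was lower by 0.35 ± 0.07 SE in exa1-1 (adjusted p = 0.00877) and by 0.86 ± 0.13 SE in wild type (adjusted p = 1.16e-06). CER1 was higher at 23 °C in exa1-1 by 0.76 ± 0.10 SE (adjusted p = 0.000218) and was not called in wild type. CER4 was called lower and KCS6 higher at 23 °C in exa1-1. The KCS6 call was lost with total counts only (adjusted p = 0.146) and on FPKM in all 3 settings (adjusted p from 0.136 to 0.156). LTP3 was higher at 23 °C in wild type (0.57 ± 0.28 SE, adjusted p = 0.0272), with overlapping libraries and a call lost without wild-type library 2 or 3 on 1/2 MS or library 2 at 23 °C. The sources used here give no difference between the sets beyond their labels, so the condition, the sampling and the run cannot be told apart.

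Other genes of the wax pathway moved in both directions under salt. Of 15 tested genes of elongation, modification, export and turnover, 9 rose and 5 fell in exa1-1 (median log2 0.35). In wild type 6 rose and 5 fell (median 0.11). Over all genes 35.7% were higher and 36.2% lower in exa1-1, and 35.3% and 35.6% in wild type. Scaled by total counts, 9 of the 15 rose and 5 fell in exa1-1, and 3 rose and 7 fell in wild type. LACS1, an acyl-CoA synthetase that activates long fatty acids for wax and cutin, changed by -1.83 on the log2 scale in exa1-1 and -1.57 in wild type. LTPG2, a membrane-anchored lipid transfer protein of wax export, changed by -0.63 in exa1-1 and -0.77 in wild type, and CER7, an exosome subunit known to act on CER3 expression, by -0.40 in exa1-1 and -0.46 in wild type. CER5, the ABC transporter that exports wax, went the other way, by 0.48 in exa1-1 and 0.47 in wild type. All 4 passed the test in both genotypes.

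Under heat 38.4% of all genes were higher in each genotype, and 41.8% were lower in exa1-1 and 41.6% in wild type. The same 15 wax pathway genes gave 3 higher and 11 lower in exa1-1 (median -0.52). In wild type they gave 3 higher and 12 lower (median -0.69). Scaled by total counts, which lowered the median of all genes, 1 was higher and 13 were lower in each genotype. CER9, a ubiquitin ligase known as a negative regulator of wax and cutin, was higher by 1.93 in exa1-1 and 1.67 in wild type, and stayed higher with total counts. CER2, which lets KCS6 make its longest products, changed by -1.21 in exa1-1 and -1.57 in wild type. CER5 changed by -0.97 in exa1-1 and -1.21 in wild type, and LTPG2 by -2.49 in exa1-1 and -2.46 in wild type. CER5, KCS6 and CER1 were thus each higher under salt and lower under heat in both genotypes.

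Among the other KCS genes more fell than rose under salt. Of 13 tested, 3 rose and 8 fell in exa1-1 (median -0.31) and 1 rose and 11 fell in wild type (median -0.60). Under heat 1 rose and 10 fell in exa1-1 (median -1.47) and 0 rose and 10 fell in wild type (median -1.15). Among all genes 35.7% rose and 36.2% fell under salt in exa1-1, and 35.3% and 35.6% in wild type. Heat raised 38.4% of all genes in each genotype, and lowered 41.8% in exa1-1 and 41.6% in wild type. KCS12 fell by 2.63 on the log2 scale under salt in exa1-1 and by 2.28 in wild type, and by 2.59 and 2.63 under heat in the same genotypes. KCS3 was higher under salt, by 1.32 in exa1-1 and 1.16 in wild type. Of 6 tested genes listed as relatives of WSD1, 2 were higher and 2 lower under salt in exa1-1, 1 higher and 2 lower in wild type, and all 6 were lower under heat in both genotypes. Among 5 lipid transfer proteins besides LTP3, 3 rose and 2 fell under salt in both genotypes; LTP1 changed by 1.37 in exa1-1 and 1.24 in wild type.

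Of 10 regulators of wax other than MYB94 and MYB96, 3 were higher and 4 lower under salt in exa1-1 (median -0.20). In wild type 4 were higher and 5 lower (median 0.01). Over all genes 35.7% were higher and 36.2% lower in exa1-1, and 35.3% and 35.6% in wild type. These counts do not set the regulators apart from all genes. DEWAX, an AP2/ERF repressor of wax genes, changed by -2.91 on the log2 scale in exa1-1 and -3.20 in wild type. AT5G07580, from the same list, changed by -2.29 in exa1-1 and -1.89 in wild type. MYB41, known for induction by osmotic stress and for a part in suberin, changed by 4.88 in exa1-1 and 3.72 in wild type, and SPL9, an activator of CER1, by 1.28 in exa1-1 and 1.06 in wild type. MYB30, an activator of very-long-chain fatty acid synthesis, changed by -0.94 in exa1-1 and -1.03 in wild type. Under heat 0 of these 10 were higher and 7 were lower in each genotype (medians -1.81 in exa1-1 and -1.40 in wild type). Among all genes 38.4% were higher in each genotype, and 41.8% were lower in exa1-1 and 41.6% in wild type. With total counts, which lowered the median of all genes, 10 regulators were lower in exa1-1 and 7 in wild type. With TMM scaling DEWAX was at -3.11 in exa1-1 and -2.85 in wild type, and MYB30 at -2.75 in exa1-1 and -2.44 in wild type.

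Among genes of the related lipid polymers, more suberin genes rose than fell under salt, and more cutin genes fell than rose. Of all genes 35.7% rose and 36.2% fell under salt in exa1-1, and 35.3% and 35.6% in wild type. Of 8 suberin genes, 6 rose and 2 fell in exa1-1 (median 1.25) and 5 rose and 3 fell in wild type (median 1.03); GPAT5, an acyltransferase of suberin, changed by 2.05 in exa1-1 and 1.33 in wild type. Of 11 cutin genes, 2 rose and 7 fell in exa1-1 (median -0.46) and 1 rose and 8 fell in wild type (median -0.32); GPAT8, an acyltransferase of cutin, changed by -1.03 in exa1-1 and -1.25 in wild type. Under heat 1 of the 8 suberin genes was higher and 6 were lower in each genotype, with medians of -1.88 in exa1-1 and -2.07 in wild type. Of 10 cutin genes 3 were higher and 6 lower in exa1-1 and 2 higher and 6 lower in wild type. Heat raised 38.4% of all genes in each genotype, and lowered 41.8% in exa1-1 and 41.6% in wild type. With total counts, which lowered the median of all genes, 0 suberin and 0 cutin genes were higher under heat in exa1-1.

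**Figure D5:**
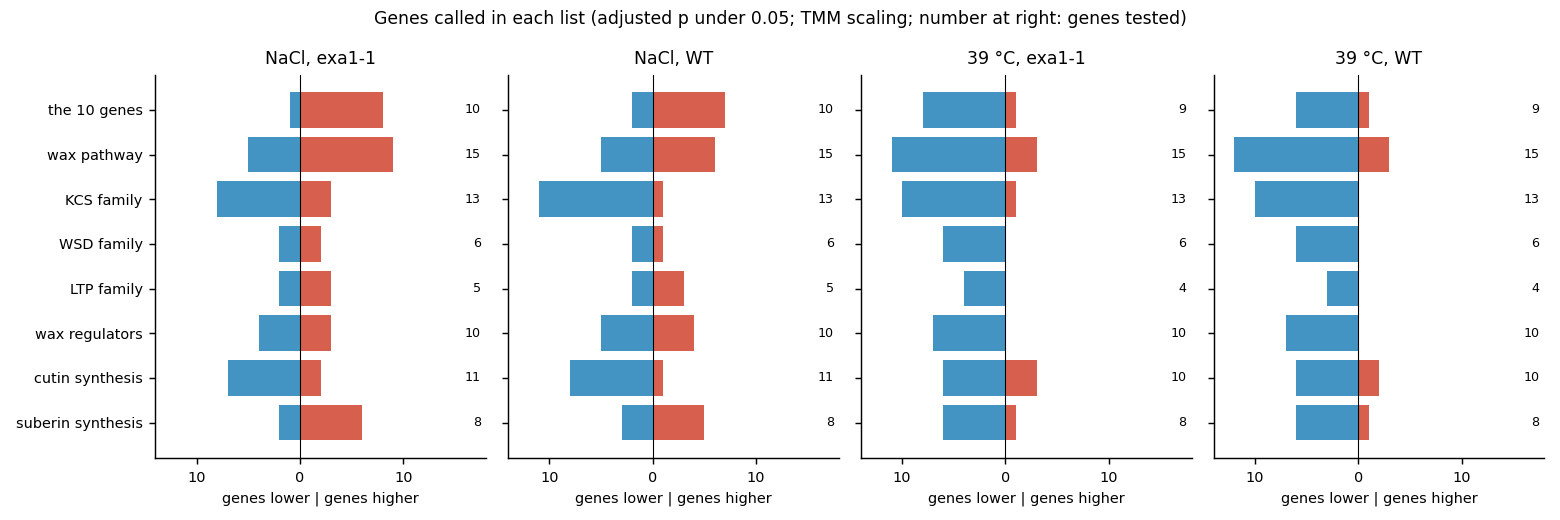
Number of genes of each list called higher (right) and lower (left) for NaCl over 1/2 MS and for 39 °C over 23 °C in exa1-1 and wild type under TMM scaling, with the number tested at the right of each panel. The 10 genes have more higher than lower calls under salt, the other KCS genes have more lower than higher calls under both stresses, and lower calls outnumber higher ones in every list shown under heat.

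Markers of the epidermis, the cells that make wax, were lower under salt while most of the wax genes rose. Salt raised 35.7% of all genes and lowered 36.2% in exa1-1, and 35.3% and 35.6% in wild type. Of 6 epidermis markers 0 were higher and 4 lower in exa1-1, and 1 higher and 4 lower in wild type. Their summed level was 222 to 229 CPM in exa1-1 and 221 to 231 CPM in wild type under NaCl, against 321 to 334 CPM in exa1-1 and 339 to 369 CPM in wild type on 1/2 MS. Heat raised 38.4% of all genes in each genotype, and lowered 41.8% in exa1-1 and 41.6% in wild type. Of the 6 markers, 1 was higher and 3 lower under heat in each genotype. With total counts, which lowered the median of all genes, all 6 were lower in each. Their sum under TMM scaling was 297 to 317 CPM in exa1-1 and 266 to 298 CPM in wild type at 39 °C. At 23 °C it was 384 to 429 CPM in exa1-1 and 381 to 393 CPM in wild type. No epidermis marker was at 0 in any library.

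The other marker lists moved too. Their counts stand beside the shares of all genes given for the epidermis markers. Guard cell markers were lower in 5 of 5 under heat in both genotypes, with a sum of 25.3 to 28.3 CPM in exa1-1 and 24.0 to 27.6 CPM in wild type at 39 °C, against 68.6 to 72.6 CPM in exa1-1 and 74.5 to 76.6 CPM in wild type at 23 °C. Root markers, of interest because KCS2 is known from root suberin, were higher in 2 of 5 and lower in 3 of 5 under salt in both genotypes, and their sum was 1073 to 1117 CPM in exa1-1 and 875 to 904 CPM in wild type under NaCl, against 1913 to 2097 CPM in exa1-1 and 1880 to 2138 CPM in wild type on 1/2 MS. The root sum was mostly PYK10, at 3690 to 53586 counts per library, against at most 881 for any other root marker. With total counts, PYK10, COBL9 and EXPA7 were lower under salt in each genotype, and TIP2;3 and RHD6 were higher. Mesophyll markers were higher in 4 of 5 under salt in exa1-1 and 5 of 5 in wild type, and in 5 of 5 under heat in both. With total counts 4 of 5 were higher under heat in each genotype. The median log2 change under heat was then 1.14 in exa1-1 and 1.51 in wild type, against 2.14 and 2.39 under TMM scaling. Between the genotypes, mesophyll markers were lower in 4 of 5 in exa1-1 under NaCl and on 1/2 MS, with a sum of 8764 to 9194 CPM in exa1-1 and 13887 to 16442 CPM in wild type under NaCl, and of 6474 to 6933 CPM in exa1-1 and 8231 to 9318 CPM in wild type on 1/2 MS, and 3 of 5 had a lower salt response in exa1-1. Of all genes 13.6% were lower in exa1-1 under NaCl and 10.1% on 1/2 MS, and 5.16% had a lower salt response. Of the epidermis markers 0 of 6 were called between the genotypes under NaCl and 3 were lower in exa1-1 on 1/2 MS. Other lists moved with the same difference: under NaCl 7 of 8 suberin genes, 9 of 13 other KCS genes and 7 of 15 other wax pathway genes were higher in exa1-1, and 0, 1 and 1 of them were lower. In that comparison 15.9% of all genes were higher and 13.6% lower. The part of these shifts in the results for the wax genes was not tested.

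Across the 8 group means, each member had genes with a nearly parallel profile on the log2 CPM scale. The closest 2 of 21906 genes for each member had Pearson's r between 0.986 and 0.999 over 8 groups, values that rest on the same 24 libraries and on the choice of the best of many. For KCS6 the closest were LAC16 (r = 0.999) and AT3G24460 (r = 0.995), for KCS2 DGK1 (r = 0.996) and AT3G19390 (r = 0.995), and for KCS1 AT3G59080 and AT3G62080 (r = 0.998 each). For CER3 they were AT5G41040, which is the suberin gene ASFT (r = 0.995), and KEA5 (r = 0.993), and for CER1 CSLA10 and CYP89A9 (r = 0.986 each). For CER4 they were GH3.9 (r = 0.990) and RLM3 (r = 0.989), and for WSD1 AT4G09605 (r = 0.993) and JAZ8 (r = 0.989). For LTP3 they were AT2G28390 (r = 0.993) and AT1G49450 (r = 0.991), for MYB94 TTL and RGA1 (r = 0.996 each), and for MYB96 PTF1 (r = 0.997) and CRK32 (r = 0.995). Among the members themselves the most alike pair was CER3 and KCS6 (r = 0.978 over 8 groups) and the least alike was LTP3 and CER4 (r = -0.959).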

How the data were processed

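Messenger RNA was measured in 24 libraries of 8 groups, 3 each, which held 17658196 to 20992263 counts. Per the submitters' processing notes, reads were aligned with HISAT2 2.0.4 and counted with HTSeq 0.6.1p1 on TAIR10, and the deposited count table holds raw counts for 32833 genes. The authors' deposited FPKM table holds values for 28251 genes, which divide each count by the gene's length and the library's total. No source at hand names the strand setting, the handling of shared reads or the annotation release. Members, gene lists and tests were chosen with earlier results of these data known.

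Counts were tested in R 4.3.3 with edgeR 4.0.16 (TMM, filterByExpr, glmQLFit, glmQLFTest) and Benjamini-Hochberg adjustment over all genes tested, in 3 fits of 12 libraries (salt series, heat series, unstressed groups) and 1 fit of all 24 for salt against heat, giving 14 comparisons. A call is an adjusted p under 0.05. Standard errors are from the spread of log2 CPM with a prior count of 2 within the groups. They are not those of the fitted changes or of the tests that gave the p-values. Ratios of summed counts carry exact 95% intervals, for counting error only. Alternatives were DESeq2's size factors, total counts only, DESeq2 1.42.0, no filter, a replicate block, limma 3.58.1 on log2 FPKM (pseudocount 1 or 0.1, genes of at least 1 FPKM in 3 libraries, or no filter), all 24 libraries in 1 fit, and leaving out each library. List counts under other scalings were added after the data were seen. The scripts were tested on simulated data. Sequences were read from RefSeq's TAIR10.1. Named genes were the members, EXA1, up to 4 genes of each list with the smallest adjusted p in wild type under each stress, the closest paralogues, and the 2 genes closest in profile to each member. FAR1 was added after its values were seen.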

Additional observations from a re-analysis of the deposited data

Results flagged for a closer look

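The salt or heat response differed between the genotypes, by the interaction term in edgeR, in 8 cases and in 1 gene chosen for such a difference. Under salt the log2 response in exa1-1 minus that in wild type was 0.31 for CER3, 0.53 for KCS1, 0.57 for KCS2 and 0.40 for MYB96. Among related genes it was 0.41 for KCS5 and 0.50 for KCS20. The value of 1.75 for FAR1 is a description, since that gene was chosen for this pattern. Under heat it was -0.94 for CER1 and -0.79 for KCS2. KCS2 is the only member called for both stresses, and its call under heat was lost in 8 of 12 fits that left out 1 library.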

How the results depend on the processing

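Of 2998 values of the members under alternatives, 2868 kept their side of the threshold without a reversal, 84 lost a call, 38 gained one and 8 reversed. Most of these alternatives left out 1 library, often from a group outside the comparison. An uncalled value that stayed uncalled also counts as kept. The total is therefore no measure of how firm a call is. A reversal is a change of sign where the main or the alternative value was called. Changes of sign between uncalled values are not counted as such. WSD1, for instance, ran from -0.50 to 0.51 on the log2 scale for the difference in salt response. The reversed values concern heat in wild type: KCS2 was -0.82 with total counts only, -0.68 on FPKM with pseudocount 1, -0.81 with pseudocount 0.1 and -0.68 with no filter, and MYB96 was -0.75, -0.57, -0.73 and -0.57 under the same alternatives. The epidermis marker HDG1 also reversed, to -0.32, -0.29, -0.31 and -0.29. FPKM and total counts share their scaling by the library total, which moved the median of all genes under heat; what moved it was not tested. The number of members called for exa1-1 over wild type on 1/2 MS was 2 in DESeq2, with no filter and on FPKM with pseudocount 1 or 0.1. At 39 °C it was 2 with total counts only, 3 on FPKM with pseudocount 1, 4 with pseudocount 0.1 and 2 with all 24 libraries in 1 fit. For the difference in heat response it was 1 on FPKM under each of the 3 settings, and over all genes 2557 were called with all 24 libraries in 1 fit, against 1687. For the other settings named, counts of all genes are not given here. A move of the members there cannot be read apart from a move of all genes. The cause of these moves was not tested. Leaving out 1 library at a time gave 1 to 2 members called on 1/2 MS, beside 2689 to 4285 of all genes. Under NaCl it gave 3 to 6 members, beside 4727 to 6243 of all genes. For the difference in salt response it gave 2 to 4, beside 1826 to 2452. At 39 °C it gave 0 to 3, beside 3844 to 5568. For the difference in heat response it gave 0 to 2, beside 965 to 1596. Over all genes, 2482 to 4285 were called for exa1-1 over wild type at 23 °C. The salt counts stayed at 9 in each genotype. With 8 groups numbered alike, the replicate block gave 9 members called under salt in each genotype, the count found without it. It gave 4 for the difference in salt response and 2 for that in heat response, again as without it. Libraries of the same number had r between -0.121 and 0.0972 over 54 pairs taken fit by fit. In 14 of 36 comparisons taken the same way, a library correlated best with its own number. Unstressed libraries enter both a stress fit and the fit of unstressed groups, so they and some pairs are counted again. On these values the numbers were not taken to pair the libraries. CER4 and WSD1 rest on few counts, and for WSD1 at 39 °C a count of 0 limits what can be said.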
